A study of Mus musculus with 6 samples.

Results

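The adhesion receptor genes Cdh1, Itgav and Sdc4 and the contractile gene Myh9 were measured together in mouse kidney. They were chosen by name and by the place of their reads in the genome, as abundant genes of epithelial adhesion and tension, with the values of these libraries already known. They are 4 of the 9519 genes that could be read here and 4 of the 5246 that passed a filter on low counts, and all 4 members passed it. RNA was sequenced from kidneys of C57BL/6 mice, a standard inbred laboratory strain, at postnatal day 21. A group of 3 libraries is labelled acute renal failure, a rapid loss of kidney function, and is called ARF-labelled; the other 3 libraries are labelled healthy. The groups share strain, age and tissue, and the labels name no genotype, agent, dose or cause of renal failure; the titles only call the groups treat and control. Nothing in the labels ties a library to its own animal, so every SD and p-value measures the spread between these libraries, which may be technical.

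Total counts ran between 5455886 and 6191479 in the ARF-labelled libraries and between 2873370 and 5710010 in the healthy-labelled libraries. The row names in the deposited tables do not match the place of the reads, so genes were named by the position of each row on the GRCm38 assembly. Segment markers of the kidney were present: the principal cell water channel Aqp3 averaged 8297 ± 945 CPM (counts scaled to the same library total) in ARF-labelled and 3224 ± 261 CPM in healthy-labelled libraries (SD, n = 3 each). Markers of injured tubule went against the group labels. Of the 11 listed, 6 could be read and tested, and 5 of them were lower in the ARF-labelled group; their summed level was 2015 to 2782 CPM in ARF-labelled libraries and 10210 to 16397 CPM in healthy-labelled libraries. Whether the labels of the groups were exchanged was not tested; if they were, every direction given below would turn round. The group names below are only those of the labels.

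Epithelial cells hold to each other and to the matrix beneath them through transmembrane receptors that are coupled inside the cell to actin. E-cadherin, the product of Cdh1, joins neighbouring epithelial cells and binds catenins at its cytoplasmic tail. Integrin alpha v, the product of Itgav, pairs with one of several beta subunits to bind matrix proteins and the latent form of TGF-beta, while syndecan-4, the product of Sdc4, is a heparan sulfate proteoglycan that acts beside integrins at focal adhesions. Non-muscle myosin IIA, whose heavy chain is the product of Myh9, pulls on actin at both kinds of contact.

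The members are read through parts of their exons. Cdh1 (ENSMUSG00000000303.12, chr8:106603351-106670246, plus strand) was covered over 1678 of 4430 exon bases by 5 deposited rows. Itgav (ENSMUSG00000027087.11, chr2:83724397-83806916, plus strand) was covered over 2814 of 7054 exon bases by 2 rows. Sdc4 (ENSMUSG00000017009.3, chr2:164424247-164443887, minus strand) was covered over 212 of 2458 bases by 2 rows, and Myh9 (ENSMUSG00000022443.17, chr15:77760587-77842175, minus strand) over 484 of 7433 bases by 1 row. To show which message was counted, 1 coding exon piece of each member follows, read from the GENCODE M21 transcript 5′ to 3′. Capitals mark the bases that a deposited row covers and lower case the 15 coding bases on either side. The coordinates are those of the capitals on GRCm38: exon 6 of Cdh1 at chr8:106656824-106656968 (plus strand), exon 20 of Itgav at chr2:83791893-83792040 (plus strand), exon 2 of Sdc4 at chr2:164431234-164431313 (minus strand) and exon 3 of Myh9 at chr15:77807868-77808024 (minus strand). These pieces were picked for display after the covered exons were known.
Cdh1 exon 6: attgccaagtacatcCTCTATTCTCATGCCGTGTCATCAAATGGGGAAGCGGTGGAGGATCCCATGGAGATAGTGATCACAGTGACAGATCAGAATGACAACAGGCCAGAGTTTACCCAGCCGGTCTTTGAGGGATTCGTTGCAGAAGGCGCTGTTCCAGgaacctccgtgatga
Itgav exon 20: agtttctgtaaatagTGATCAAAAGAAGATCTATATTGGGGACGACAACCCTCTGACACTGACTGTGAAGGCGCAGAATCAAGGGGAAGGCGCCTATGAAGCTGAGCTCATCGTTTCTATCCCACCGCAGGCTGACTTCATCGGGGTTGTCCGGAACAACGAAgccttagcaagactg
Sdc4 exon 2: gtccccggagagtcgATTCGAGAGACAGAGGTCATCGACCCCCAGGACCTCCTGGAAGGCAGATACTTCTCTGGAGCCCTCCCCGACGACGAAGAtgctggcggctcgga
Myh9 exon 3: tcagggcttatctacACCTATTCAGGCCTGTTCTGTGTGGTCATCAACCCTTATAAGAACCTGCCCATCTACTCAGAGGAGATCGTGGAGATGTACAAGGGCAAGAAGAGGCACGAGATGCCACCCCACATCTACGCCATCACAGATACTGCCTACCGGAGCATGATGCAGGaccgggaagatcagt

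All 4 members were lower in the ARF-labelled group; the fitted level in the healthy-labelled group was between 2.24 times (Cdh1) and 3.51 times (Myh9) that of the ARF-labelled group. Across all genes the test called 24.9% lower and 25.1% higher, and in 22.4% of tested genes every ARF-labelled library lay below every healthy-labelled library, so such a change was common in these libraries. Together the 4 genes took 0.649, 0.655 and 0.664% of all counts in the ARF-labelled libraries, against 1.58, 1.43 and 1.25% in the healthy-labelled libraries. Fewer cells of a type and less RNA per cell cannot be told apart in whole-kidney RNA. Levels are CPM of the library's total count; log2 fold changes are ARF-labelled minus healthy-labelled from edgeR's quasi-likelihood test with TMM scaling, adjusted by Benjamini-Hochberg over all tested genes, and a call is an adjusted p under 0.05. Since the members were chosen with results known, their adjusted p-values describe these genes and are no independent support for a direction shared by the 4.

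Cdh1 had 4136, 4257 and 4230 CPM in the ARF-labelled libraries, against 9655, 8168 and 7244 CPM in the healthy-labelled libraries. The lowest healthy-labelled library was well above the highest ARF-labelled one, and the ARF-labelled libraries were tightly grouped while the healthy-labelled ones were spread. The means were 4208 ± 63.4 CPM in ARF-labelled and 8356 ± 1216 CPM in healthy-labelled libraries (SD, n = 3 each). The log2 fold change was -1.16 (SE 0.14, edgeR adjusted p = 2.70e-04), the smallest of the 4 members; 11.7% of tested genes had a fold change at or below it.

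Itgav had 788, 811 and 955 CPM in the ARF-labelled libraries, against 2440, 2094 and 1775 CPM in the healthy-labelled libraries. The groups did not overlap, and again healthy-labelled replicate 1 was the highest and replicate 3 the lowest of its group. The means were 851 ± 90.2 CPM in ARF-labelled and 2103 ± 333 CPM in healthy-labelled libraries. The log2 fold change was -1.48 (SE 0.15, edgeR adjusted p = 1.18e-04), and 8.37% of tested genes were at or below it.

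Sdc4 had 1004, 1023 and 1032 CPM in the ARF-labelled libraries, against 2149, 2492 and 2056 CPM in the healthy-labelled libraries. The ARF-labelled libraries were nearly equal, and the highest healthy-labelled library was replicate 2, unlike for Cdh1 and Itgav. The means were 1020 ± 14.5 CPM in ARF-labelled and 2232 ± 229 CPM in healthy-labelled libraries. The log2 fold change was -1.30 (SE 0.12, edgeR adjusted p = 6.57e-05), and 10.1% of tested genes were at or below it.

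Myh9 had 564, 462 and 423 CPM in the ARF-labelled libraries, against 1588, 1541 and 1378 CPM in the healthy-labelled libraries. Every healthy-labelled library held more than 2 times the level of any ARF-labelled one. The means were 483 ± 72.6 CPM in ARF-labelled and 1502 ± 110 CPM in healthy-labelled libraries. The log2 fold change was -1.81 (SE 0.14, edgeR adjusted p = 3.59e-05), the most negative of the members, with 5.87% of tested genes at or below it.

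**Figure D1:**
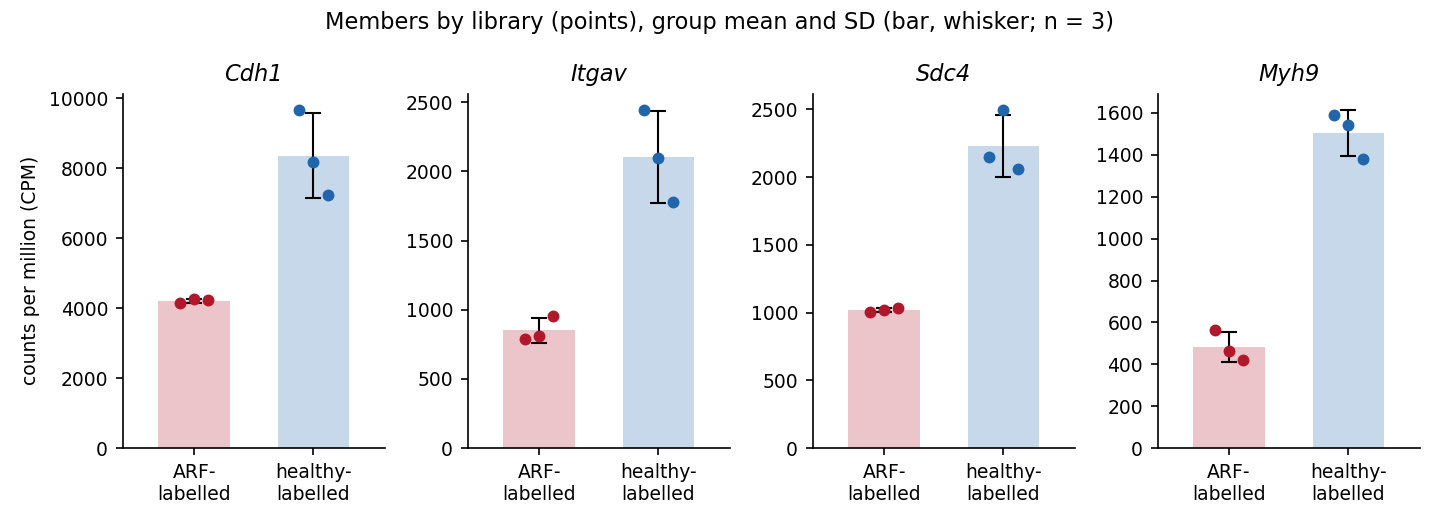
CPM (vertical axis, from 0) of Cdh1, Itgav, Sdc4 and Myh9 in the 3 ARF-labelled libraries (red) and the 3 healthy-labelled libraries (blue); points are libraries, bars are means and whiskers are SD. In all 4 panels the ARF-labelled points lie below the healthy-labelled points, with means of 4208 CPM in ARF-labelled and 8356 CPM in healthy-labelled libraries for Cdh1, and of 483 CPM in ARF-labelled and 1502 CPM in healthy-labelled libraries for Myh9.

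Set per length of the counted exon bases, Sdc4 stood highest with a mean of 4810 CPM per kilobase in ARF-labelled and 10530 CPM per kilobase in healthy-labelled libraries. Cdh1 followed with 2508 in ARF-labelled and 4980 CPM per kilobase in healthy-labelled libraries, then Myh9 with 998 in ARF-labelled and 3104 in healthy-labelled libraries. Itgav was lowest, with 303 CPM per kilobase in ARF-labelled and 747 in healthy-labelled libraries. The libraries of neighbouring members in that order did not overlap within either group. Averaged over the 6 libraries, 99.8% of tested genes lay below Sdc4 on this scale, 99.4% below Cdh1, 98.7% below Myh9 and 90.5% below Itgav. These levels describe how the members were chosen. A fragment that only partly overlaps a counted piece is also counted, so short pieces, as in Sdc4, read high per kilobase.

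The 10 rows give the same comparison along each transcript. All 10 were called lower in the test on deposited rows, as were 22.6% of all rows tested. In all 10 the groups also did not overlap, with the ARF-labelled libraries lower. The share of all rows without overlap was not computed. For Cdh1, the row over exons 6 to 8 gave a log2 fold change of -1.23 (SE 0.16), that over exon 9 gave -1.15 (SE 0.16), that over exon 10 gave -1.09 (SE 0.15) and that over exons 12 and 13 gave -1.02 (SE 0.15). The last Cdh1 row, over exons 15 and 16 of 16 with 272 coding and 489 3′ UTR bases, gave -1.18 (SE 0.14). For Itgav, the coding row over exons 20 to 22 gave -1.34 (SE 0.19), and the row of 2493 3′ UTR bases in exon 30 gave -1.51 (SE 0.15). For Sdc4, 80 coding bases of exon 2 gave -1.25 (SE 0.12) and 132 bases of 3′ UTR in exon 5 gave -1.32 (SE 0.12). The single Myh9 row covers coding bases of exons 2 and 3 of 41. The adjusted p of the 10 rows ran between 3.07e-05 and 6.37e-04 (edgeR on the deposited rows). Within Cdh1, Itgav and Sdc4, the fold changes of the pieces of a message differed from each other by less than they differed from 0.

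**Figure D2:**
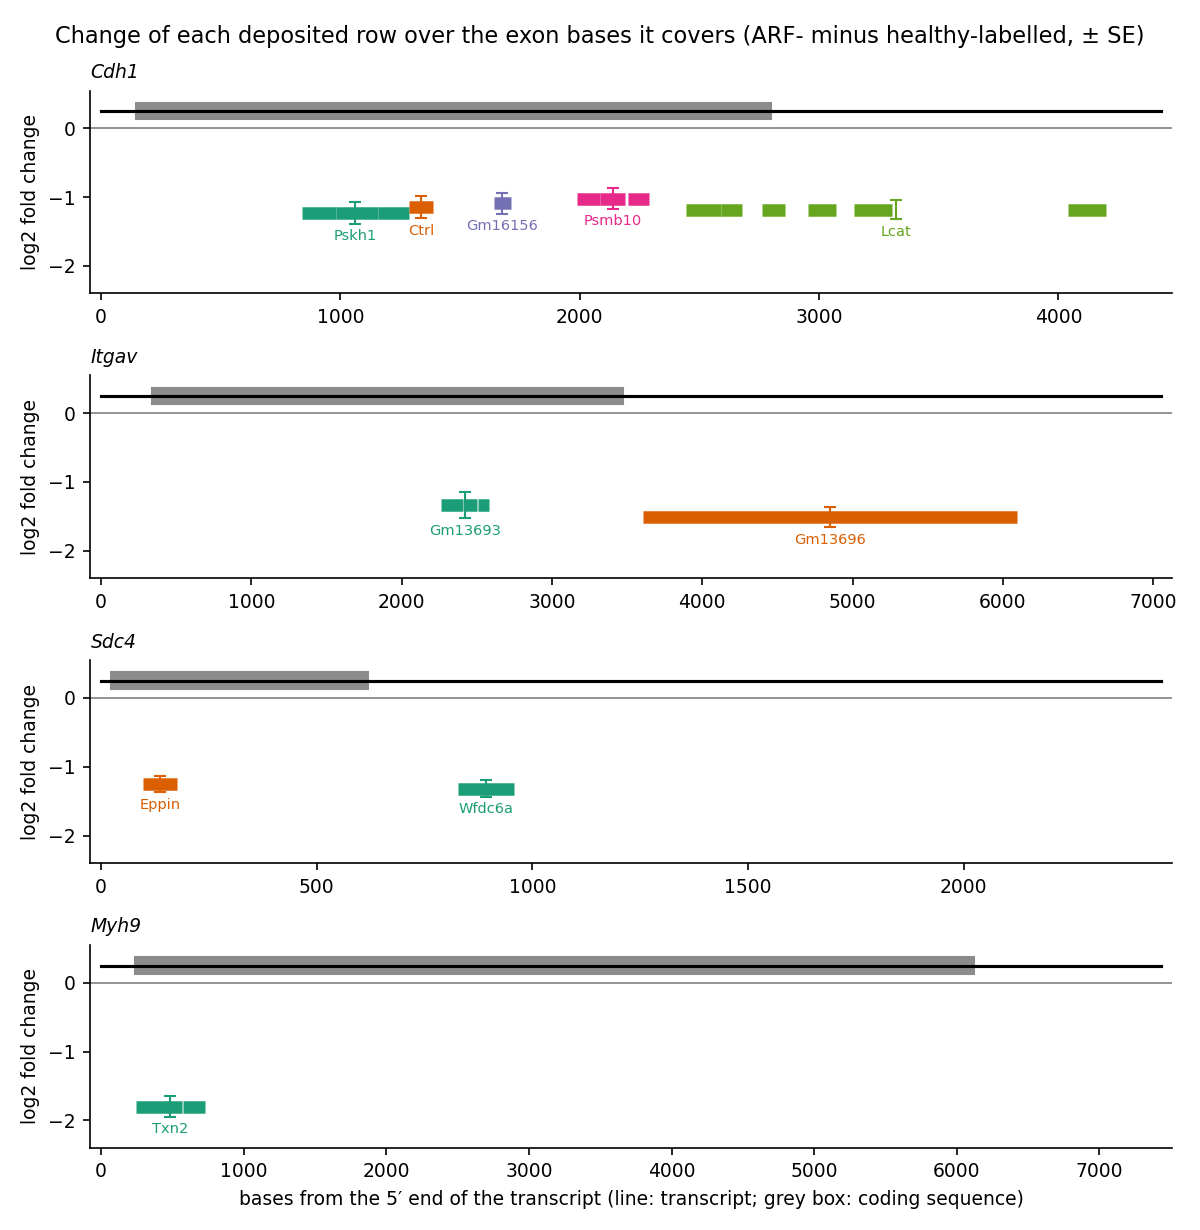
Log2 fold change (vertical axis, ARF-labelled minus healthy-labelled, whiskers SE) of each deposited row, drawn over the exon bases it covers along the transcript (horizontal axis, bases from the 5′ end); the line is the transcript, the grey box the coding sequence, and each colour and name a deposited row. All 10 rows lie below 0, between -1.02 and -1.80.

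The ratio of 2 pieces of the same message within a library does not depend on scaling. For Cdh1 the log2 ratio of the row over exons 12 and 13 to the row over exons 15 and 16 was -1.44, -1.44 and -1.35 in ARF-labelled libraries, against -1.50, -1.63 and -1.61 in healthy-labelled libraries. That ratio was higher in the ARF-labelled group by 0.17 without overlap, a small part of the change of the gene itself. For Sdc4 the log2 ratio of the coding to the 3′ UTR piece was -0.14, -0.14 and -0.09 in ARF-labelled libraries, against -0.19, -0.19 and -0.21 in healthy-labelled libraries, a difference of 0.07 without overlap. The groups overlapped in the other 4 such ratios, that of the coding to the 3′ UTR piece of Itgav included. These ratios were not tested.

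Whether the members fell by equal amounts was asked with their ratios within a library. Myh9 relative to Cdh1, as a log2 ratio of CPM, was -2.88, -3.21 and -3.32 in the ARF-labelled libraries, against -2.60, -2.41 and -2.39 in the healthy-labelled libraries. The groups did not overlap, and the difference of means was -0.67. Myh9 relative to Sdc4 was lower in the ARF-labelled group by 0.52 on the log2 scale and Itgav relative to Cdh1 was lower by 0.32, both without overlap. Each of these 3 had an exact two-sided permutation p of 0.100, with a Benjamini-Hochberg adjusted p of 0.180 over the 9 ratios compared. A p of 0.100 is the smallest that 3 against 3 libraries can give. No ratio could therefore pass 0.05, and this test cannot decide whether the falls were equal. Sdc4 relative to Cdh1 was -2.04 ± 0.01 in ARF-labelled and -1.90 ± 0.24 in healthy-labelled libraries, with overlap (exact permutation p = 0.400). The groups also overlapped for Sdc4 relative to Itgav and for Myh9 relative to Itgav.

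Myh9 and its paralogues moved in opposite directions. The heavy chain of non-muscle myosin IIB, Myh10, rose: it had 678, 746 and 692 CPM in the ARF-labelled libraries, against 288, 261 and 237 CPM in the healthy-labelled libraries. Myh14, the heavy chain of myosin IIC, rose too, with 479, 395 and 353 CPM in the ARF-labelled libraries, against 150, 92.9 and 124 CPM in the healthy-labelled libraries. Neither gene's groups overlapped. The log2 fold change was 1.25 for Myh10 (SE 0.12, edgeR adjusted p = 9.12e-05) and 1.56 for Myh14 (SE 0.20, edgeR adjusted p = 3.36e-04).

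Within a library, the log2 ratio of Myh9 to Myh10 was -0.27, -0.69 and -0.71 in the ARF-labelled libraries, against 2.46, 2.56 and 2.54 in the healthy-labelled libraries. The difference of -3.08 is free of library scaling. The log2 ratio of Myh9 to Myh14 was 0.24, 0.22 and 0.26 in ARF-labelled libraries, against 3.40, 4.05 and 3.47 in healthy-labelled libraries, a difference of -3.40. Myh14 relative to Myh10 overlapped between the groups, with means of -0.80 ± 0.26 in ARF-labelled and -1.12 ± 0.32 in healthy-labelled libraries. The exact permutation p of both Myh9 ratios was 0.100, again the smallest possible (adjusted p = 0.180 over the 9 ratios). Different lengths of the 3 genes are covered, so the ratios show unequal change and not which heavy chain was the most abundant.

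**Figure D3:**
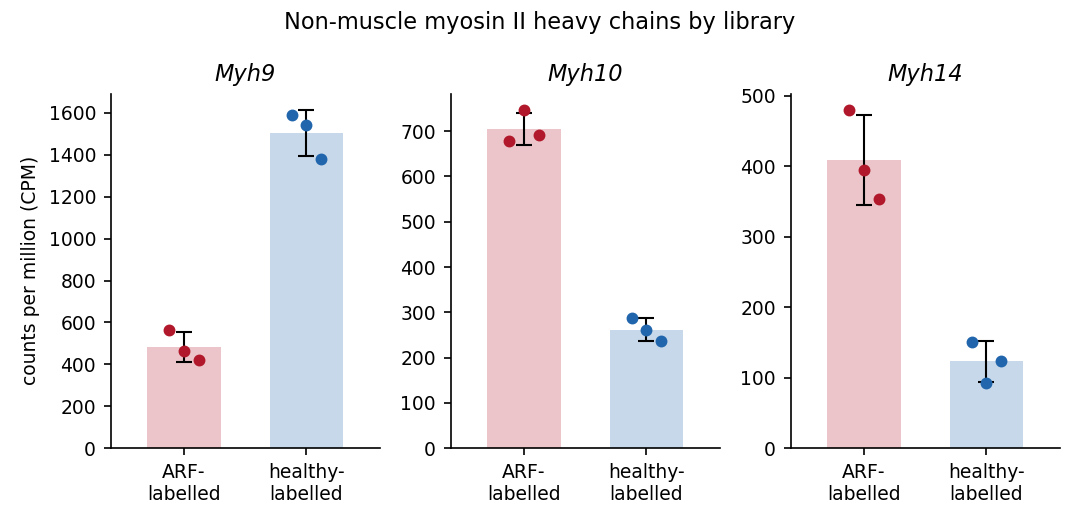
CPM (vertical axes, from 0, each with its own scale) of the 3 non-muscle myosin II heavy chain genes in the ARF-labelled libraries (red) and the healthy-labelled libraries (blue), with means as bars and SD as whiskers (n = 3 each). Myh9 averaged 483 CPM in ARF-labelled and 1502 CPM in healthy-labelled libraries, while Myh10 averaged 705 CPM in ARF-labelled and 262 CPM in healthy-labelled libraries and Myh14 averaged 409 CPM in ARF-labelled and 123 CPM in healthy-labelled libraries.

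Of the 31 listed genes of myosin II and its regulators, 17 could be read and 16 tested: 3 rose, 4 fell and 9 were not called. Their median log2 fold change was -0.06, against 0.01 over all tested genes, of which 24.9% were called lower and 25.1% higher. Beside Myh9, Rnd3, a small GTPase gene (-2.21, SE 0.21), and Ppp1r12a, the targeting subunit of myosin phosphatase (-0.72, SE 0.17), fell. The kinase Rock2 fell as well (-1.43, SE 0.36), at a low 4.59 ± 1.61 CPM in ARF-labelled and 11.3 ± 3.82 CPM in healthy-labelled libraries. Its paralogue Rock1 had 957 ± 36.3 CPM in ARF-labelled and 1004 ± 27.5 CPM in healthy-labelled libraries. Rock1 was not called (-0.24, edgeR adjusted p = 0.0808), but with DESeq2 it was called lower (-0.26, DESeq2 adjusted p = 0.0213). The third gene that rose was Arhgef28, a guanine nucleotide exchange factor gene (0.42, SE 0.13, edgeR adjusted p = 0.0284), whose call was lost without ARF-labelled replicate 1 or 2 or healthy-labelled replicate 1 or 2, at adjusted p of 0.0607 to 0.0846. Of the regulatory light chains only Myl9 could be read, at 19.3 ± 2.12 CPM in ARF-labelled and 22.9 ± 12.2 CPM in healthy-labelled libraries, with no call (edgeR adjusted p = 0.388). Leaving out 1 library left 2 to 4 genes of the list called higher. Mylk was not called with all libraries (0.70, edgeR adjusted p = 0.105). Without ARF-labelled replicate 3 it was called higher (1.03, edgeR adjusted p = 0.00258).

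Among the partners of Itgav, the integrin subunits fell widely. Of all tested genes 24.9% were called lower and 25.1% higher, the shares to set beside this and the other list and marker counts. Of 19 listed integrin subunits, 14 could be read and 12 tested. Of those tested, 10 fell, 0 rose and 2 were not called, with a median log2 fold change of -1.64. The count of those that fell was 9 to 11 when any 1 library was left out, with Itga8 losing its call without ARF-labelled replicate 2 or 3 (edgeR adjusted p = 0.0533 and 0.0565) and Itga2b gaining one without healthy-labelled replicate 3 (0.0230). The beta subunits that pair with alpha v and bind latent TGF-beta were among them. Itgb6, restricted mostly to epithelia, had 58.8, 46.5 and 53.5 CPM in the ARF-labelled libraries, against 263, 183 and 183 CPM in the healthy-labelled libraries (log2 fold change -2.17, SE 0.17, edgeR adjusted p = 3.99e-05). Itgb8 had 45.3, 41.1 and 36.2 CPM in the ARF-labelled libraries, against 113, 119 and 144 CPM in the healthy-labelled libraries (log2 fold change -1.79, SE 0.14, edgeR adjusted p = 3.83e-05). For both genes the groups lie far apart. Itgb4, the partner of alpha 6 in hemidesmosomes, fell less (-0.82, SE 0.17); Itgb1, Itgb3 and Itgb5 were not analysed here.

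The most negative log2 fold changes in the list were those of the fibronectin receptor subunit Itga5 (-3.16, SE 0.35), the laminin receptor subunit Itga6 (-3.15, SE 0.26) and the collagen receptor subunit Itga2 (-2.17, SE 0.18). Itga5 had 4.03, 2.35 and 7.75 CPM in the ARF-labelled libraries, against 29.1, 43.9 and 41.6 CPM in the healthy-labelled libraries. Itga1, another collagen receptor subunit, averaged 343 ± 31.5 CPM in ARF-labelled and 329 ± 72.8 CPM in healthy-labelled libraries, which overlapped (edgeR adjusted p = 0.612). The platelet subunit Itga2b also had no call (edgeR adjusted p = 0.0736). The fold change of Itgav itself was the eighth most negative of the 12, between those of Itga8 and Itga2b.

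**Figure D4:**
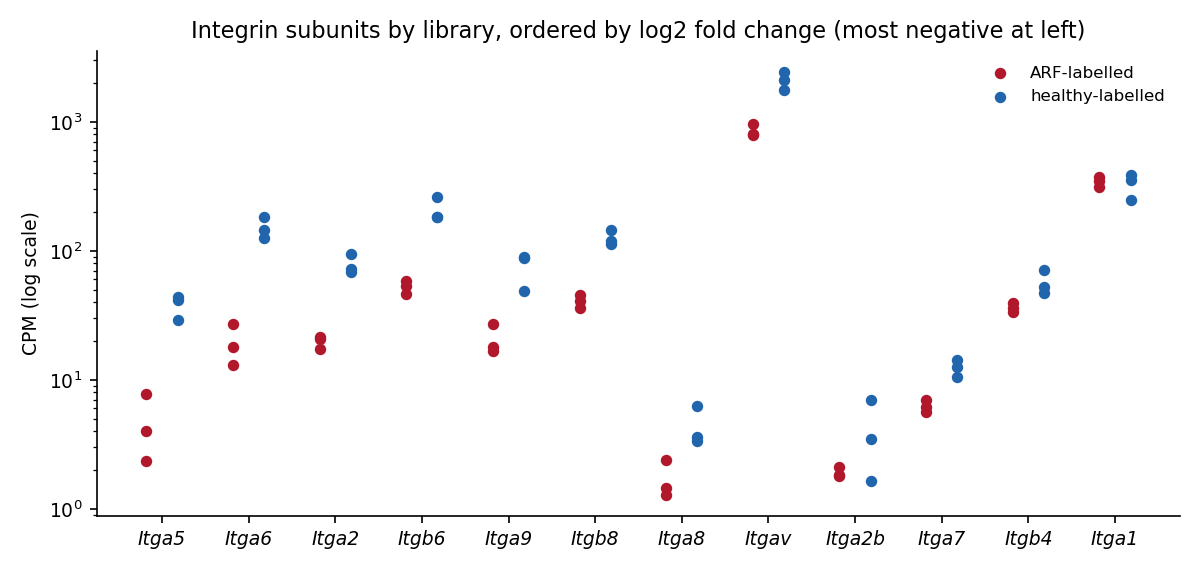
CPM (vertical axis, log scale) of the 12 tested integrin subunit genes in each ARF-labelled (red) and healthy-labelled (blue) library, ordered by log2 fold change with the most negative at the left. The 2 sets of points separate for 10 genes, with the ARF-labelled points lower, and overlap for Itga2b and Itga1.

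Of the 19 listed ligands of alpha v integrins 8 could be read and 5 tested; 2 fell and 0 rose, with a median log2 fold change of -0.97. Without ARF-labelled replicate 3, 6 were tested, 1 was called higher and the median was -0.26; without healthy-labelled replicate 2 the median was -0.35. Those that fell were Lrrc32, a membrane protein that holds latent TGF-beta (16.3 ± 4.54 CPM in ARF-labelled and 161 ± 38.4 CPM in healthy-labelled libraries, log2 fold change -3.47, SE 0.25), and the matrix protein Tnc (8.38 ± 3.63 CPM in ARF-labelled and 41.1 ± 7.42 CPM in healthy-labelled libraries, log2 fold change -2.48, SE 0.32). Fibronectin, Fn1, varied widely within both groups, at 135 ± 78.1 CPM in ARF-labelled and 238 ± 132 CPM in healthy-labelled libraries, and was not called (edgeR adjusted p = 0.156).

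Of 30 listed focal adhesion genes 13 could be read and tested; 9 fell, 2 rose and 2 were not called, with a median log2 fold change of -1.01. The integrin activator Fermt2 had 173, 194 and 158 CPM in the ARF-labelled libraries, against 585, 586 and 592 CPM in the healthy-labelled libraries (log2 fold change -1.92, SE 0.12). The actin crosslinker Actn1 (-1.77, SE 0.28) and the tension-sensitive adaptor Zyx (-1.73, SE 0.14) fell to a like degree. Talin, which links integrins to actin, is split: Tln1 fell (-0.71, SE 0.16) at 2203 ± 418 CPM in ARF-labelled and 3190 ± 363 CPM in healthy-labelled libraries. Tln2 rose (1.19, SE 0.24) at a low 30.1 ± 5.39 CPM in ARF-labelled and 11.8 ± 4.03 CPM in healthy-labelled libraries; with a looser share for naming rows its fold change was 0.63. The adaptor Tns1 was called higher (0.43, SE 0.13, edgeR adjusted p = 0.0246), but leaving out any library other than ARF-labelled replicate 2 ended that call, at adjusted p of 0.0567 to 0.0857.

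Few of the genes that act with Cdh1 at adherens junctions could be read. Of 21 listed cadherins, catenins and nectins 5 could be read and 4 tested; 2 fell and 0 rose, with a median log2 fold change of -0.77. The delta-catenin gene Ctnnd1, whose product binds the tail of E-cadherin near the membrane, had 333, 348 and 295 CPM in the ARF-labelled libraries, against 322, 325 and 302 CPM in the healthy-labelled libraries. Its groups overlapped and it was not called (log2 fold change -0.13, SE 0.11, edgeR adjusted p = 0.362). Cdh17 fell (-3.14, SE 0.65) at very low levels, with 0.832 ± 0.711 CPM in ARF-labelled and 6.22 ± 4.09 CPM in healthy-labelled libraries. Cdh6, a cadherin of the proximal tubule, had 38.0 ± 13.8 CPM in ARF-labelled and 44.4 ± 10.5 CPM in healthy-labelled libraries and was not called; without ARF-labelled replicate 3 it was called lower (-0.70, adjusted p = 0.0287). The beta- and alpha-catenin genes were not analysed here.

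Sdc4 was the member of its own list with the most negative log2 fold change. Of 34 listed genes of syndecans, glypicans and heparan sulfate synthesis 14 could be read and 13 tested; 6 fell, 2 rose and 5 were not called, with a median of 0.02. Sdc2, another syndecan, had 226, 272 and 250 CPM in the ARF-labelled libraries, against 332, 254 and 352 CPM in the healthy-labelled libraries; these overlapped. Sdc2 was called lower (-0.50, SE 0.15, edgeR adjusted p = 0.0243), but the call was lost without ARF-labelled replicate 1 or 3 or healthy-labelled replicate 1 or 3, at adjusted p of 0.0586 to 0.0904. Sdcbp, the syntenin gene whose product binds syndecan tails (-0.42, SE 0.15), and the sulfotransferase gene Hs6st1 (-0.46, SE 0.14) were called lower, while Adam17, a sheddase of cell-surface proteins (0.50, SE 0.17), and Xylt2, which starts the sugar chain (0.36, SE 0.13), were called higher. Leaving out 1 library left 1 to 5 genes of the list called lower and 0 to 3 called higher. The call of Sdcbp ended without ARF-labelled replicate 1 or 3 or healthy-labelled replicate 1 or 3, that of Hs6st1 without ARF-labelled replicate 1 or 2 or healthy-labelled replicate 1, and those of Adam17 and Xylt2 without any 1 library other than healthy-labelled replicate 1, at adjusted p between 0.0518 and 0.153. With total-count scaling 1 gene, Sdc4 (its lower call held in every alternative), was called lower.

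Of 33 listed genes of the actin filament and cortex 14 could be read and 13 tested; 8 fell and 2 rose, with a median log2 fold change of -0.82. Those with the most negative fold changes were Pdlim7 (-2.59, SE 0.11), the actin-binding Cald1 (-2.20, SE 0.23) and the tropomyosin gene Tpm4 (-1.97, SE 0.12). The 2 that rose encode spectrins of the membrane skeleton. Sptan1 had 7254, 5555 and 3286 CPM in the ARF-labelled libraries, against 1517, 1766 and 1653 CPM in the healthy-labelled libraries (1.53, SE 0.26). Sptbn1 (1.14, SE 0.33, edgeR adjusted p = 0.0188) lost its call without ARF-labelled replicate 1 or 2 or healthy-labelled replicate 1 or 3, at adjusted p of 0.0514 to 0.0649.

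Counts for other junctions were near the shares over all tested genes, of which 24.9% were called lower and 25.1% higher. Of 9 tested tight junction genes 3 fell and 2 rose (median -0.34): the scaffolds Tjp1 (-0.81, SE 0.15) and Magi3 (-0.48, SE 0.10) were among those that fell, and Magi1 (0.68, SE 0.13) and the polarity gene Pard3 (0.79, SE 0.26) rose. The call of Pard3 was lost without ARF-labelled replicate 2 or 3 or healthy-labelled replicate 2 or 3, at adjusted p of 0.0675 to 0.114. Of 9 tested genes of desmosomes and hemidesmosomes 3 fell and 2 rose (median 0.06). Itga6 and Itgb4 fell with the linker Plec (-1.43, SE 0.29), and Evpl (1.52, SE 0.26) and Dst (0.67, SE 0.21) rose, the call of Dst ending without ARF-labelled replicate 1 or healthy-labelled replicate 1 or 3, at adjusted p of 0.0576 to 0.0945.

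Genes that set epithelial character moved the way of Cdh1 in some cases and against it in others. Of 14 listed regulators 8 could be read and tested; 4 fell and 2 rose. Zeb1, a repressor of Cdh1 in other settings, had 50.2, 41.1 and 45.1 CPM in the ARF-labelled libraries, against 137, 251 and 242 CPM in the healthy-labelled libraries (-2.37, SE 0.22). The intermediate filament gene Vim (-2.15, SE 0.34) and the repressor Zeb2 (-1.99, SE 0.26) fell as well. The splicing factor gene of epithelia Esrp1 (0.73, SE 0.12) and the epithelial transcription factor gene Grhl2 (0.45, SE 0.12) rose, the call of Grhl2 ending without healthy-labelled replicate 2 or 3, at adjusted p of 0.0567 and 0.0746. Of 13 tested genes of the tension-sensing YAP and SRF pathway 6 fell and 1 rose. The most negative were Tead4 (-2.41, SE 0.32), Axl (-1.59, SE 0.23) and Mrtfb (-1.50, SE 0.32). Tead4 was low, at 2.37 ± 0.646 CPM in ARF-labelled and 11.5 ± 2.95 CPM in healthy-labelled libraries. Mrtfb was low too, at 3.08 ± 1.03 CPM in ARF-labelled and 7.74 ± 1.17 CPM in healthy-labelled libraries. Of the 6, Yap1 itself (-0.30, SE 0.11) passed only just and lost its call when any 1 library was left out, at adjusted p of 0.0619 to 0.171. The 1 that was called higher, Ajuba (0.50, SE 0.16), lost its call without ARF-labelled replicate 2 or 3 or healthy-labelled replicate 1 or 3, at adjusted p of 0.0748 to 0.109.

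**Figure D5:**
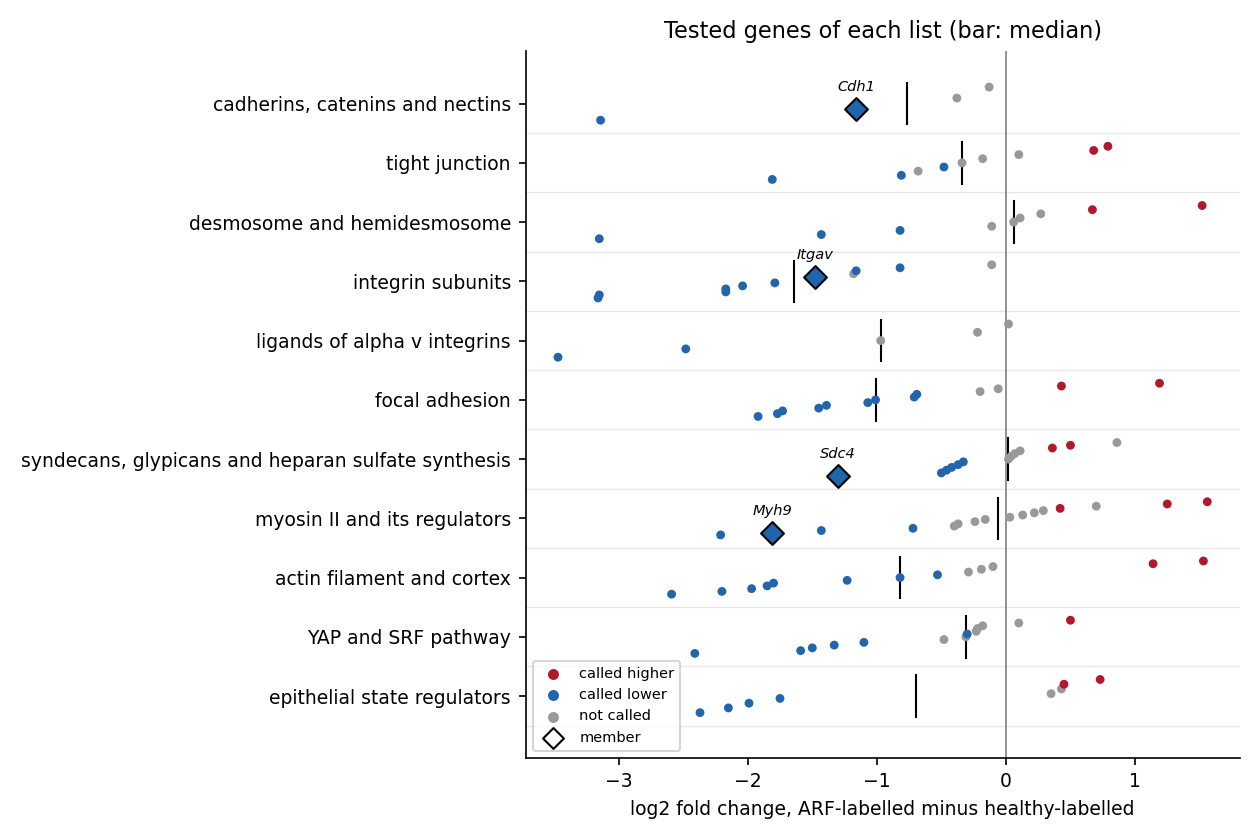
Log2 fold change (horizontal axis, ARF-labelled minus healthy-labelled) of every tested gene of 11 lists, with genes called higher in red, called lower in blue and not called in grey; bars are list medians and diamonds the 4 members. The integrin subunits have the most negative median, -1.64, and Sdc4 and Myh9 lie far to the left of the medians of their own lists, 0.02 and -0.06.

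The genes whose profile over the 6 libraries was most like each member's were taken from 1366 tested genes with a mean of at least 100 CPM, by the root mean square distance of log2 CPM centred on each gene's mean. For Cdh1 they were Stat3 (distance 0.0902), Pdp1 (0.0932) and Tes (0.0965), against a median distance of 0.598 over all genes compared. For Sdc4 they were Tead1 (0.0784), Anp32b (0.0965) and Ncl (0.0970), against a median of 0.659. For Itgav they were Asns (0.126), H6pd (0.128) and Tnfrsf1a (0.134), against a median of 0.751, and for Myh9 they included Ddx39 (0.0971) and Frmd4b (0.106), against a median of 0.908. Among the members, Cdh1 and Sdc4 were the closest pair (0.156) and Cdh1 and Myh9 the farthest (0.365). As a measure of likeness these distances hold mostly the difference between the groups, which all the genes named here share. Tead1, a partner of YAP, had 315, 292 and 318 CPM in the ARF-labelled libraries, against 622, 742 and 690 CPM in the healthy-labelled libraries.

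The promoters of Sdc4 and Myh9, which held matches to the motifs searched, are shown. That of Itgav, also lower in the ARF-labelled group, held none and is not shown. Whether any match bears on the change was not tested. RefSeq sequences on GRCm38.p6 matched 3 of the 4 members, Cdh1 not among them, and the 250 bases before the RefSeq start were searched on both strands. The RefSeq start of Sdc4 lies inside the GENCODE gene given above, whose outer end is farther upstream, while those of Itgav and Myh9 are at the end of the GENCODE gene; distances are from the RefSeq start. Capitals mark matches to the GC box, the CCAAT box, the TATA box and the NF-kB motif, as they read on the strand shown or as their reverse complement. The Sdc4 promoter is at chr2:164443189-164443438 and the Myh9 promoter at chr15:77842176-77842425, both on the minus strand.
Sdc4 promoter: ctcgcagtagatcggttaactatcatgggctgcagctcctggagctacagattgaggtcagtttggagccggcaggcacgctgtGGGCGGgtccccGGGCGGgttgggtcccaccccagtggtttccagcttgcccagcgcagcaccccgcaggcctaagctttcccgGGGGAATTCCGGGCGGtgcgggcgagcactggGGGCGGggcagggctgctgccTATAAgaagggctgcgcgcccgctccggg
Myh9 promoter: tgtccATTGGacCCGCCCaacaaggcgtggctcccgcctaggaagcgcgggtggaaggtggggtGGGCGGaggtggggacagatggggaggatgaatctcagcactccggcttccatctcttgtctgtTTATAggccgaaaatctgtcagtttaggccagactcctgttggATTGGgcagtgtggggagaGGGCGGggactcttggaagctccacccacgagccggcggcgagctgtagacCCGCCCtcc

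With GGGCGG as the GC box, the Sdc4 promoter held 4 and the Myh9 promoter 4, while that of Itgav (chr2:83724147-83724396, plus strand) held 0; 32.7% of 32851 promoters held at least 1. Sdc4 had 1 TATA box, searched as TATAA, 29 to 25 bases before the start, and Myh9 had 1 on the other strand; 22.8% of promoters held one. Myh9 had 2 CCAAT boxes, found in 33.8% of promoters. Sdc4 had 1 NF-kB motif, 82 to 73 bases before the start, whose last letters adjoin a GC box; 3.90% of promoters held that motif. The letters of the AP-1 site TGANTCA (6.75% of promoters), the TEAD site CATTCC (12.6%), the Snail and Zeb E-box CACCTG (17.2%) and the CArG box by name (1.47%) were found in none of the 3 windows. These matches only describe the letters in the windows.

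Markers of several cell types also differed between the groups, some in the direction of the members and some against it. All 5 tested intercalated cell markers rose, with a summed level of 4662 to 5716 CPM in ARF-labelled and 1072 to 1333 CPM in healthy-labelled libraries, and all 4 tested principal cell markers rose, at 9488 to 11305 CPM in ARF-labelled and 3350 to 4069 CPM in healthy-labelled libraries. Of 5 tested proximal tubule markers 4 fell, at 2102 to 3388 CPM in ARF-labelled and 3784 to 5926 CPM in healthy-labelled libraries. Macrophage and dendritic cell markers fell in 4 of 5, at 21.6 to 29.3 CPM in ARF-labelled and 45.0 to 83.5 CPM in healthy-labelled libraries. Both neutrophil markers fell, at 3.08 to 6.95 CPM in ARF-labelled and 46.6 to 155 CPM in healthy-labelled libraries. Endothelial markers fell in 3 of 5, at 145 to 164 CPM in ARF-labelled and 179 to 346 CPM in healthy-labelled libraries, and without healthy-labelled replicate 2 a further 1 was called higher. Of 2 tested platelet markers 1 fell and 1 was not called. Gp6, which fell, was at 0 counts in all ARF-labelled libraries and at 3.33, 7.66 and 4.96 CPM in the healthy-labelled libraries. Itga2b overlapped between the groups, at 1.91 ± 0.161 CPM in ARF-labelled and 4.04 ± 2.69 CPM in healthy-labelled libraries, and was not called. Fibroblast and smooth muscle markers were split, with 2 higher and 1 lower of 6, at 290 to 511 CPM in ARF-labelled and 225 to 1625 CPM in healthy-labelled libraries. These counts rested on single libraries: without healthy-labelled replicate 1 they were 1 higher and 4 lower, without ARF-labelled replicate 1 or healthy-labelled replicate 3 they were 0 and 0, and without ARF-labelled replicate 2 or healthy-labelled replicate 2 they were 1 and 0. Their part in the values of Cdh1, Itgav, Sdc4 and Myh9, like that of the injury markers, was not tested.

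Among the remaining marker lists, the 1 tested loop of Henle marker rose, at 184 to 197 CPM in ARF-labelled and 8.81 to 18.4 CPM in healthy-labelled libraries. Of 3 distal tubule markers 1 rose and 2 fell, and of 2 podocyte markers 1 fell and 1 was called higher, a call lost without ARF-labelled replicate 1 or 3 or healthy-labelled replicate 1 or 3. Both tested erythroid markers fell, at 28.8 to 78.9 CPM in ARF-labelled and 163 to 789 CPM in healthy-labelled libraries. Of 2 tested urothelial markers 1 rose, and Trp63 was at 0 in every library.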

How the data were processed

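RNA of 6 kidney libraries was prepared with Trizol and a TruSeq kit, per the labels' protocols. The authors deposited counts of fragments per row; per the file headers they were made with featureCounts 2.0.1, ignoring strand. Bowtie 0.12.2 and mm9 are named in the submitters' processing notes, while the design text names other aligners, so the sources used here leave the aligner of these counts uncertain. The intervals and names of the rows belong to another assembly than the reads, as seen from where the counts fall.

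Rows were therefore given to a gene by intersecting their intervals with exons of GRCm38 (GENCODE M21 basic, protein-coding or long non-coding, readthrough transcripts left out) with bedtools 2.31.1; tables were handled in pandas 2.3.3 and scipy 1.17.1 under Python 3.11.15. A row went to the gene holding 0.9 or more of the exon bases under it, with 25 bases as the minimum, and rows of a gene were summed. Of 53546 rows 12401 were named, giving 9519 genes and 63.0% of the counts. Antisense transcripts and near-identical copies may add reads, and a fragment that touches more than 1 row may be missing.

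Genes were tested with edgeR 4.0.16 in R 4.3.3 (quasi-likelihood test, two-sided, TMM, filterByExpr, library totals over all rows, group as the only term), with Benjamini-Hochberg adjusted p under 0.05. Over all genes the log2 fold change had a median of 0.01 with TMM, 0.00 with DESeq2 size factors and 0.19 with total-count scaling, and changes are relative to that shift. CPM is relative to the total count and SE is that of the fitted log2 fold change. Alternatives were DESeq2 1.42.0, other scalings, filters and naming rules, a replicate block and leaving out each library.

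The members and lists were chosen with earlier results of these data known. Genes were named by rule. The rule took the members, the partners by role and the 3 genes most like each member. It also took the 3 called genes with the largest change in each direction of each list. Ppp1r12a, Rock1, Tln1, Itga5's per-library values and genes named for a lost or gained call fall under a count or were added after values were seen. The ratios, exon pieces and motifs were chosen after values or sequences were seen. Of each list, genes that could not be read are not analysed here. A gene that the rule names is not reported here.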

Additional observations from a re-analysis of the deposited data

How the results depend on the processing

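Each member was lower in the ARF-labelled group, at an adjusted p under 0.05, under all 15 alternatives run for it. These were edgeR fits and DESeq2's own test. The log2 fold change ran between -1.28 and -0.99 for Cdh1, -1.62 and -1.30 for Itgav, -1.38 and -1.13 for Sdc4, and -1.92 and -1.64 for Myh9, and leaving out 1 library kept it within -1.28 to -1.05, -1.62 to -1.36, -1.38 to -1.25 and -1.92 to -1.71 for the same genes. The largest adjusted p was 0.00196, from edgeR for Cdh1 without ARF-labelled replicate 2. Over all genes, total-count scaling called 1749 higher and 1013 lower (63.3% higher), against 1319 and 1305 (50.3% higher) with TMM. The lowest count called higher was 985, without healthy-labelled replicate 3, and the highest count called lower was 1796, when a row needed a share of at least 0.5. Of 308 counts over the gene lists other than the markers of cell types, 261 stayed within 1.5 times and 47 did not; no called list gene changed sign.

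Replicate numbers did not pair the libraries: deviations of same-numbered libraries correlated at -0.07, -0.22 and -0.29. With a replicate block, the log2 fold change was -1.15 for Cdh1, -1.47 for Itgav, -1.30 for Sdc4 and -1.82 for Myh9, and 1135 genes were called higher and 1153 lower. Only part of each message is counted, down to 6.51% of the exon bases of Myh9, so changes elsewhere in a message are not seen.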

Other observations

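The deposited rows that carry the members' own symbols do not hold their reads. The row named Cdh1 had 672, 757 and 1058 counts in ARF-labelled libraries and 793, 289 and 465 counts in healthy-labelled libraries. It overlapped 307 exon bases of Nqo1, the gene with the most bases under it, and could be given to no gene by position. This row had no call (log2 fold change 0.06, edgeR adjusted p = 0.776). The rows named Itgav, Sdc4 and Myh9 held 2, 0 and 11 counts over all 6 libraries.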
